A study of Mus musculus with 6 samples.

Results

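The genes described here make up the pathway by which cells present antigen on MHC class II. They are the 3 classical chain genes H2-Aa, H2-Ab1 and H2-Eb1, the invariant chain gene Cd74, the transactivator gene Ciita, and the 5 genes of the nonclassical pairs DM and O (H2-DMa, H2-DMb1, H2-DMb2, H2-Oa and H2-Ob). They were chosen by name, with earlier results of these data known, and all 10 were found among the 34745 genes of the deposited table. RNA had been sequenced from liver sinusoidal endothelial cells (LSECs), which line the blood channels of the liver, in 2 groups of mice with 3 libraries each. One group carried floxed Tgfbr2, the gene of the type II TGF-beta receptor (Tgfbr2f/f, here f/f). The other was an endothelial-specific Tgfbr2 knockout with f/f littermates (Tgfbr2 ECKO, here ECKO). Every mouse of both groups had received the liver toxin carbon tetrachloride (CCl4) by intraperitoneal injection 2 times a week for 6 weeks, so no untreated mice enter the comparison. The sources used here give no Cre driver, strain, age or sex, and no method of LSEC isolation, and the titles call the f/f group WT. The labels do not say that each library came from its own mouse, so p-values measure the spread between these libraries.

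MHC class II molecules are pairs of an alpha and a beta chain that carry peptides from endosomes to the cell surface, where CD4+ T cells read them. The invariant chain CD74 escorts new pairs to endosomes and fills their groove, DM then exchanges its last fragment for peptides, and O restrains DM. CIITA, the master coactivator of the pathway, does not bind DNA itself but docks on a set of factors (RFX, CREB and NF-Y) held at conserved promoter boxes called X and Y. B cells, dendritic cells and macrophages express the pathway strongly, and LSECs are known to express it at a lower level and to present antigen in the liver.

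The promoter sequences are shown because several members were lower together in ECKO, as the values further on show, and the boxes are the known docking site of the pathway's regulator. In RefSeq sequence of build GRCm38.p6, promoters of 7 of the 10 genes were matched (8 promoters, with 2 for H2-DMa). Ciita, H2-Ab1 and Cd74 had no entry used here. The 250 bases before each start were searched on both strands for an X box core, written AGNNACNGA with N for any base, followed after 10 to 30 bases by a Y box core, ATTGG. The exact module was present before the RefSeq start of H2-Eb1 and of H2-DMb1, and in 59 of all 32851 promoters (0.18%). With at most 1 mismatch in the X core it was present before the RefSeq start of 5 of the 7 genes, and in 4.16% of all promoters. A match is a description of the letters and not of a bound factor. In the following lines, each read 5′ to 3′ on the gene's strand, capitals mark the X core and then the Y core.
H2-Eb1 (chr17:34305770-34305817, plus strand, exact X core): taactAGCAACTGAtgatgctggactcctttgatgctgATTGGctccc
H2-DMb2 (chr17:34145120-34145168, plus strand, 1 mismatch): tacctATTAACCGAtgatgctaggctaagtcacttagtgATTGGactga
H2-Ob (chr17:34238812-34238857, plus strand, 1 mismatch): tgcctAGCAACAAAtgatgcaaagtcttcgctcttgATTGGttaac
H2-Aa (chr17:34287862-34287911, minus strand, Y core only): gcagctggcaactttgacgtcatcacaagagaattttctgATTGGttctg

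In the 5 genes with both cores (H2-Eb1, H2-DMb1, H2-DMb2, H2-Ob and H2-Oa), 22 to 25 bases lay between them, and the Y core began 43 to 90 bases before the start. H2-Aa held the Y core 48 bases before its start without an X core of the searched letters at the searched distance. One of the 2 H2-DMa promoters held a Y core 198 bases before its start and the other none. The Y core alone is common, being present in 33.8% of all promoters. These distances are from RefSeq starts, which differ from the gene starts of the deposited table for several members. The H2-DMb1 module lies inside the gene as the table and GENCODE M21 place it, in its 5′ UTR, and the H2-DMb2 window lies in an intron of a longer GENCODE transcript. The last 6 bases of the H2-Oa window also lie in a 5′ UTR, so the windows of H2-DMb1 and H2-Oa are not shown.

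Library totals ranged from 17171850 to 25062755 counts, and 13692 genes passed the filter on low counts. The endothelial markers Stab2, Lyve1, Clec4g and Oit3 stood at 775 to 3654 CPM (counts scaled to library size, with TMM factors) in every library. Of 14 LSEC markers 1 passed, Pecam1, which was higher by 0.51 on the log2 scale (edgeR adjusted p = 0.0456). Of all 13692 tested genes edgeR called 1.24% higher. DESeq2 called 3 of the 14 higher, beside 470 of all 13692 tested genes. At an unadjusted p under 0.05 in edgeR 5 were higher, beside 10.4% of all tested genes. The median of the 14 was 0.23, or 0.00 under total count scaling. Pecam1 missed without any single library (0.0554 to 0.164), in limma-voom (0.0517) and under total count scaling (0.378). Tgfbr2 itself was not lower in ECKO, at 427 ± 35.1 CPM in f/f and 499 ± 12.1 CPM in ECKO (mean ± SD, n = 3 each; edgeR quasi-likelihood adjusted p = 0.228). The labels do not say which part of the gene was deleted, and a shortened transcript would still be counted, so directions below are those of the libraries labelled ECKO. Mitochondrial transcripts took 11.5% to 23.5% of counts in f/f and 19.7% to 32.4% in ECKO, and their part in the results was not tested. Fold changes are log2 of ECKO over f/f from edgeR's quasi-likelihood test, with Benjamini-Hochberg adjusted p over all 13692 genes and a threshold of 0.05.

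Most genes of the MHC class II pathway were lower in ECKO. Of the 10 genes, 6 fell (H2-Aa, H2-Ab1, H2-Eb1, Cd74, Ciita and H2-DMa) and 0 rose, where 2.79% of all tested genes fell, 1.24% rose and 4.03% changed in either direction. Of all calls, 69.2% were lower, or 95% under total count scaling. The count of members that fell was 8 in DESeq2 and 3 in limma-voom, beside 7.58% and 1.46% of all tested genes. It was 1 to 7 when a single library was left out, beside 0.149% to 5.47% of all tested genes in those fits. The members that fell numbered 1 without f/f replicate 3 or ECKO replicate 3 and 7 without f/f replicate 1. They numbered 2 without each of f/f replicate 2 and ECKO replicates 1 and 2. H2-DMb1, H2-DMb2 and H2-Ob did not pass the threshold, and H2-Oa was too low to be tested. At an unadjusted p under 0.05 in edgeR 9 were lower and 0 higher, beside 13.1% and 10.4% of all tested genes, and DESeq2 and limma-voom called 0 higher. The 9 tested genes had log2 fold changes of -3.02 to -1.44 with a median of -1.68, beside a median of 0.01 over all tested genes. In 8 of the 9 the lowest f/f library was above the highest ECKO library, which held for 15.2% of all tested genes in that direction. The sum of the 10 genes was 114, 146 and 113 CPM in f/f replicates 1, 2 and 3, and 48.7, 37.4 and 33.7 CPM in ECKO replicates 1, 2 and 3. In bulk RNA, fewer cells of a type and less RNA per cell cannot be told apart.

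**Figure D1:**
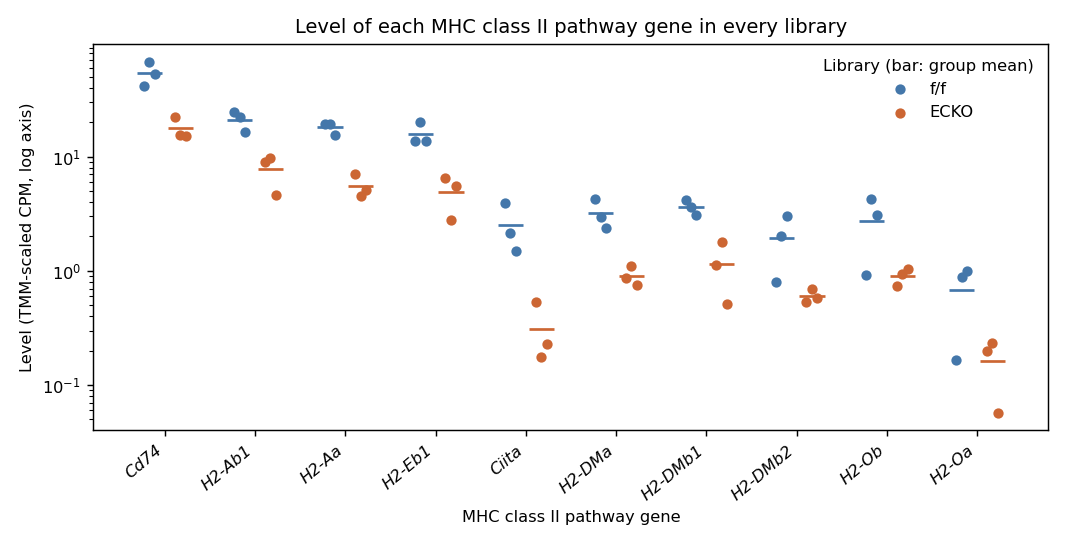
Level of the 10 MHC class II pathway genes in CPM (TMM-scaled, log axis) in 3 f/f libraries (blue) and 3 ECKO libraries (orange), with a bar at each group mean. The groups do not overlap for any gene but H2-Ob and H2-Oa, where f/f replicate 1 (leftmost blue point) lies among the ECKO libraries.

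H2-Aa, the alpha chain of the I-A molecule (chromosome 17, 34282744 to 34287827, minus strand, build mm10/GRCm38), held 19.5, 19.5 and 15.6 CPM in f/f replicates 1 to 3. It held 6.99, 4.53 and 5.10 CPM in ECKO replicates 1 to 3. Every ECKO library was below every f/f library, and the spread within each group was small beside the gap. The log2 fold change was -1.72 (SE 0.20, edgeR adjusted p = 0.00938), a 3.29-fold lower level. The call held whichever library was left out (0.00990 to 0.0432), which was the case for no other member.

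H2-Ab1, the beta chain that pairs with H2-Aa (chromosome 17, 34263209 to 34269418, plus strand), held 24.5, 22.4 and 16.3 CPM in f/f and 8.92, 9.76 and 4.64 CPM in ECKO. Replicate 3 was the lowest library of each group, and the groups did not overlap. Its difference was -1.44 on the log2 scale (SE 0.29, edgeR adjusted p = 0.0413). H2-Ab1 missed the threshold whichever library was left out (0.0555 to 0.111) and in limma-voom (0.0517).

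H2-Eb1, the beta chain of the I-E molecule (chromosome 17, 34305877 to 34316199, plus strand), held 13.8, 20.2 and 13.6 CPM in f/f and 6.46, 2.79 and 5.50 CPM in ECKO. Here f/f replicate 2 was the highest library and ECKO replicate 2 the lowest, and the groups did not overlap. H2-Eb1 fell by 1.69 on the log2 scale (SE 0.32, edgeR adjusted p = 0.0336). The gene missed without f/f replicates 2 and 3 (0.0736 and 0.101) and without ECKO replicates 1 and 3 (0.0819 and 0.0976). GENCODE M21 places the antisense gene Gm20513 across the start of H2-Eb1, and that gene had 0 counts in all 6 libraries.

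Cd74, the invariant chain (chromosome 18, 60803848 to 60812646, plus strand), was the most abundant of the 10. It held 41.9, 68.0 and 53.0 CPM in f/f and 22.4, 15.3 and 15.3 CPM in ECKO, so that the lowest f/f library was still above the highest ECKO library. Cd74 fell by 1.62 on the log2 scale (SE 0.22, edgeR adjusted p = 0.0153). Cd74 missed without f/f replicate 3 (0.0577) and without ECKO replicates 2 and 3 (0.0594 and 0.0668).

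Ciita, the transactivator on which the other genes depend (chromosome 16, 10488178 to 10527564, plus strand), had the most negative log2 fold change of the 9 tested genes. It held 3.89, 2.16 and 1.49 CPM in f/f (93, 44 and 36 counts) and 0.533, 0.174 and 0.229 CPM in ECKO (8, 3 and 4 counts). f/f replicate 1 was highest, and all ECKO libraries were below all f/f libraries. Ciita fell by 3.02 on the log2 scale (SE 0.56, edgeR adjusted p = 0.0330), an 8.09-fold lower level. From the summed counts of 173 and 15 the ratio was 8.37-fold, with a 95% counting interval of 4.94 to 15.3 (exact, conditional binomial), which covers counting error only. Ciita passed without f/f replicate 1 (0.0338). It missed without any other library (0.0606 to 0.113) and in limma-voom (0.0682). GENCODE M21 places the protein-coding gene Dexi over Ciita on the opposite strand. Without a stated strand setting, reads of these 2 genes cannot be told apart where they overlap. Whether the fall of Ciita was larger than those of the chain genes was not tested.

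H2-DMa, the alpha chain of the peptide exchanger DM (chromosome 17, 34135182 to 34139101, plus strand), held 4.22, 2.95 and 2.36 CPM in f/f and 0.865, 1.10 and 0.745 CPM in ECKO. The ECKO libraries lay close together and below all f/f libraries. The log2 fold change was -1.80 (SE 0.34, edgeR adjusted p = 0.0345). H2-DMa passed without f/f replicate 1 (0.0398), missed without each other library (0.0702 to 0.114) and missed in limma-voom (0.0625).

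The beta chain of DM has 2 gene copies in the mouse, side by side on chromosome 17. H2-DMb1 (34153072 to 34160230) held 4.14, 3.59 and 3.11 CPM in f/f and 1.13, 1.80 and 0.516 CPM in ECKO, a log2 fold change of -1.65 (SE 0.42, edgeR adjusted p = 0.0717). H2-DMb2 (34143307 to 34151553) held 0.795, 2.01 and 3.02 CPM in f/f and 0.533, 0.697 and 0.573 CPM in ECKO, a log2 fold change of -1.68 (SE 0.53, edgeR adjusted p = 0.114). Neither passed in edgeR and both passed in DESeq2 (0.00504 and 0.0478), and the groups did not overlap for either gene. Without f/f replicate 1, the lowest of its group, H2-DMb2 passed in edgeR (0.0237). Their GENCODE M21 transcripts were 95.8% identical over 1080 aligned bases and shared an unbroken run of 221 bases, so reads may have been split between them in ways that the counting, not described in the sources used here, decided. Summed into 1 feature, the copies fell by 1.66 on the log2 scale (SE 0.32, edgeR adjusted p = 0.0348). The next most alike pairs were H2-Eb1 with H2-Eb2 (longest shared run 44 bases) and H2-Ab1 with H2-Eb1 (37 bases).

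The O chains, known mainly from B cells, were low and split the f/f group. H2-Ob (chromosome 17, 34238903 to 34245907, plus strand) held 0.920, 4.23 and 3.11 CPM in f/f and 0.732, 0.930 and 1.03 CPM in ECKO. f/f replicate 1 lay among the ECKO libraries while f/f replicates 2 and 3 lay above all of them. Its log2 fold change was -1.60 (SE 0.55, edgeR adjusted p = 0.139), and without f/f replicate 1 the gene passed (0.0165). H2-Oa (chromosome 17, 34092340 to 34095234, plus strand) had 4, 18 and 24 counts in f/f and 3, 4 and 1 in ECKO, or 0.167, 0.884 and 0.994 CPM against 0.200, 0.232 and 0.0573 CPM. It showed the same split of the f/f libraries and was removed by the filter on low counts. Its summed counts of 46 and 8 gave a 4.18-fold ratio (95% counting interval 1.95 to 10.2), and a fit without the filter gave a log2 fold change of -2.02 (SE 0.81, edgeR adjusted p = 0.203). The antisense gene BC051537 overlaps H2-Oa in GENCODE M21, and without a stated strand setting their reads cannot be told apart.

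Per length, in the f/f means, Cd74 and the classical chains stood above DM, and DM above O and Ciita. In f/f the mean FPKM (the authors' level scaled by gene length and library size) of Cd74 was 29.9, followed by H2-Eb1 at 14.7, H2-Ab1 at 9.64 and H2-Aa at 7.70. DM came next, with H2-DMb1 at 2.35, H2-DMa at 1.54 and H2-DMb2 at 0.871, and then H2-Ob at 0.572, Ciita at 0.503 and H2-Oa at 0.356. Ranges over the f/f libraries overlapped between the neighbours H2-Ab1 and H2-Aa, and between each pair of neighbours from H2-DMa down to H2-Oa. Within libraries, H2-DMb2 was above H2-Ob in 6 of 6, and the other overlapping pairs kept their order in 4 or 5 of 6. In f/f replicate 1, however, H2-DMb2 (0.301 FPKM) lay below Ciita (0.706 FPKM). Cd74 was above H2-Eb1, and H2-Aa above H2-DMb1, in 6 of 6 libraries. Ranges did not overlap between Cd74 and H2-Eb1, H2-Eb1 and H2-Ab1, H2-Aa and H2-DMb1, or H2-DMb1 and H2-DMa. In ECKO the 4 most abundant genes kept that order of means, from Cd74 at 8.03 to H2-Aa at 1.97 FPKM.

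No difference in the balance between the chains was detectable. The ratio of Cd74 FPKM to the summed FPKM of the 3 classical chains was 0.706, 0.994 and 1.08 in f/f and 0.933, 0.926 and 0.884 in ECKO. The means were 0.926 ± 0.196 and 0.914 ± 0.0264 (SD, n = 3 each; exact permutation p = 1, two-sided). H2-Eb1 made up 39.2%, 49.9% and 46.9% of that sum in f/f and 45.6%, 28.5% and 54.0% in ECKO (45.4 ± 5.52 against 42.7 ± 13; exact permutation p = 0.8). H2-Aa made up 24.3 ± 1.79% in f/f and 22.4 ± 0.922% in ECKO (exact permutation p = 0.3). These ratios do not depend on library scaling, and groups of 3 and 3 cannot give an exact p below 0.1.

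The class II region of chromosome 17 also holds genes of other functions, which allows a comparison of neighbours. Between H2-Oa and H2-Eb2 the table lists 18 genes, 8 of them members. Of the 10 others 5 were tested: Brd2, a chromatin reader, and Psmb9, Tap1, Psmb8 and Tap2, which make and transport peptides for MHC class I. None passed in edgeR, DESeq2 or limma-voom (edgeR adjusted p 0.476 to 0.926), and their log2 fold changes were 0.11 (SE 0.09), 0.13 (SE 0.25), 0.07 (SE 0.40), 0.09 (SE 0.18) and 0.26 (SE 0.21) in that order. Under total count scaling, which moved the median of all genes to -0.22, Tap2 stood at 0.06 and the other 4 at -0.13 to -0.08, and the signs were the same on the FPKM scale. These genes lie between H2-DMb1 and H2-Ob, or beside H2-DMa in the case of Brd2, and those members stood at -1.80 to -1.60 on the log2 scale, of which H2-DMa passed. Gm20506 was not tested, with at most 0.147 CPM in f/f and 0 in ECKO. H2-Eb2 was not tested, with 0.0418, 0.540 and 0.373 CPM in f/f and 0.133, 0.0581 and 0 CPM in ECKO.

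**Figure D2:**
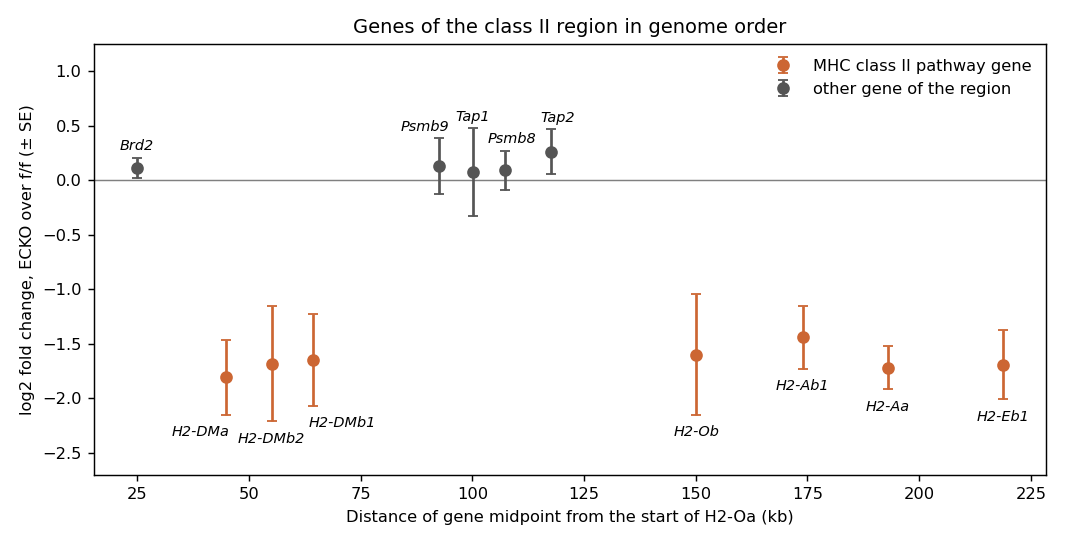
log2 fold change (ECKO over f/f, ± SE from edgeR's quasi-likelihood test) of tested genes in the class II region, against the distance of each gene's midpoint from the start of H2-Oa in kb. The 7 MHC class II pathway genes (orange) lie between -1.80 and -1.44, and the 5 other genes (grey) between 0.07 and 0.26, where their errors are as large as 0.40 and the sign of all but Tap2 turns under total count scaling.

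No MHC class I gene passed. The 13 genes, among them the heavy chains H2-K1 and H2-D1, B2m and the class I transactivator Nlrc5, gave no call in edgeR, DESeq2 or limma-voom. At an unadjusted p under 0.05 in edgeR 2 were higher, beside 10.4% of all tested genes. The median log2 fold change of the 13 was 0.14, or -0.08 under total count scaling. The 3 with the smallest p were Pdia3, Calr and Tapbp, which help load class I, at 0.42, 0.35 and 0.28 (edgeR adjusted p = 0.171, 0.206 and 0.215). Nlrc5, a relative of Ciita, held 89.8, 23.8 and 30.9 CPM in f/f and 48.2, 30.4 and 41.6 CPM in ECKO, so that f/f replicate 1 was the highest library, as it was for Ciita.

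The factors that recruit CIITA to the promoter boxes showed no call. Of 11 genes for RFX, NF-Y, CREB1 and coactivators, none passed in edgeR, DESeq2 or limma-voom, with a median of -0.05. At an unadjusted p under 0.05 in edgeR 1 was lower and 1 higher, beside 13.1% and 10.4% of all tested genes. Under total count scaling, which moved the median of all genes to -0.22, 4 of the 11 were lower and 0 higher at that p. Their median was then -0.29. Those with the smallest p were Nfyb, an NF-Y subunit, at 0.28 (edgeR adjusted p = 0.165), Carm1, a methyltransferase coactivator, at -0.47 (0.188), and Rfxank, an RFX subunit, at 0.23 (0.235). Rfx5, the DNA-binding RFX subunit, held 18.9 to 23.5 CPM in f/f and 16.6 to 24.1 CPM in ECKO.

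Interferon-gamma is the classical inducer of Ciita. Of 10 tested genes of its signalling and its brakes, none passed in edgeR or limma-voom. DESeq2 called 1 of the 10 higher, beside 470 of all 13692 tested genes. At an unadjusted p under 0.05 in edgeR 0 were lower and 2 higher, beside 13.1% and 10.4% of all tested genes. The median of the 10 was -0.32. Jak1, the receptor-bound kinase, had the smallest p, at 0.59 (edgeR adjusted p = 0.0783), followed by Irf2, an interferon regulatory factor, at 0.20 (0.193) and Ifngr2, a receptor chain, at -0.22 (0.235). Below 0 lay 7 of the 10, among them the brakes Socs1 (-0.92) and Socs3 (-0.42), and 9 under total count scaling. That scaling called 1 of the 10 lower, beside 8.83% of all tested genes. The median over all tested genes was 0.01, or -0.22 under total count scaling. Irf1, the factor that carries the signal to the Ciita promoter, held 279, 72.7 and 213 CPM in f/f and 84.5, 93.8 and 113 CPM in ECKO (edgeR adjusted p = 0.255). The highest library was f/f replicate 1. Ifng itself had at most 0.115 CPM in any library.

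Among genes that act on class II after transcription, none of 11 tested endosomal proteases, reductase and inhibitor genes passed in edgeR or limma-voom. DESeq2 called 1 of the 11 lower, beside 7.58% of all tested genes. In edgeR 1 was lower and 1 higher at an unadjusted p under 0.05, beside 13.1% and 10.4% of all tested genes. Ctss, the protease that removes the last part of the invariant chain in antigen-presenting cells, held 11.1, 26.8 and 17.1 CPM in f/f and 9.65, 6.22 and 7.22 CPM in ECKO. Its log2 fold change was -1.25 (SE 0.33, edgeR adjusted p = 0.0806), and its groups did not overlap. Ctsl, Ctsb and Ctsd, lysosomal proteases abundant in these cells, stood at 931 to 1837 CPM in every library and at 0.09 to 0.19 on the log2 scale. The list's median was 0.09, or -0.14 under total count scaling. Cst3, an inhibitor of cathepsins, was at 0.51 (adjusted p = 0.167), and Ctsf at -0.22 (0.501). The ubiquitin ligase genes March1 and March8 and Cd83, which set the time class II spends at the surface, did not pass (edgeR adjusted p 0.595 to 0.844), also not at an unadjusted p under 0.05 or in DESeq2 or limma-voom.

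Surface CD74 also acts as a receptor for the cytokine MIF together with CD44 and CXCR chemokine receptors. Cd44 fell, from 6.11, 11.8 and 7.58 CPM in f/f to 2.53, 1.63 and 2.12 CPM in ECKO, a log2 fold change of -2.02 (SE 0.31, edgeR adjusted p = 0.0212). It missed without f/f replicate 3 (0.0651) and without ECKO replicates 1, 2 and 3 (0.0756, 0.0616 and 0.0770). Cxcr4 held 2.34, 5.85 and 6.71 CPM in f/f and 2.13, 1.10 and 1.20 CPM in ECKO (-1.75, SE 0.46, edgeR adjusted p = 0.0765). Mif was at -0.10 and its relative Ddt at 0.10 (adjusted p = 0.722 and 0.820). Of 8 ligands that give T cells a second signal, 4 were tested and none passed in edgeR, DESeq2 or limma-voom, also not at an unadjusted p under 0.05 in edgeR. Cd80 and Cd86, the main costimulators, were at or below 0.460 CPM in every library. Cd274, which encodes the inhibitory ligand PD-L1, held 98.4, 21.4 and 27.4 CPM in f/f and 14.2 to 23.5 CPM in ECKO (edgeR adjusted p = 0.232), again with f/f replicate 1 the highest.

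Markers of cells that carry class II moved with the pathway in part. Of 16 B and plasma cell markers 13 were tested, and 4 fell, among them Cd79a, Ighm and Jchain, beside 2.79% of all tested genes. The 13 had a median log2 fold change of -1.80. Their summed level over all 16 was 33.2 to 72.2 CPM in f/f and 14.5 to 22.8 CPM in ECKO, and no defining marker, among them Cd79a, Cd79b and Ms4a1, was at 0 in any library. Cd79a, a chain of the B cell receptor, held 2.22, 5.21 and 5.30 CPM in f/f and 0.932, 0.407 and 0.975 CPM in ECKO (-2.45, SE 0.47, edgeR adjusted p = 0.0358). Like Ighm and Jchain, it passed without f/f replicate 1 and missed without any other single library (Cd79a 0.0806 to 0.125). DESeq2 called 9 of the 13 lower and limma-voom none, beside 7.58% and 1.46% of all tested genes. At an unadjusted p under 0.05 in edgeR 12 of the 13 were lower, beside 13.1% of all tested genes. The part of these cells in the fall of the class II genes was not tested.

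Of 14 dendritic cell markers 7 were tested. Clec9a was higher, at 0.75 (SE 0.13, edgeR adjusted p = 0.0307), and the others did not pass. DESeq2 called 2 lower and 1 higher, where 7.58% of all tested genes were lower and 470 of 13692 were higher. The 2 lower at an unadjusted p under 0.05 in edgeR were Itgax and Ccr7, beside 13.1% of all tested genes. Ccr7, a homing receptor, stood at -2.20 (adjusted p = 0.0864). Clec9a missed without f/f replicates 2 and 3 (0.0775 and 0.115), without ECKO replicates 1 and 3 (0.106 and 0.0964) and under total count scaling (0.0768). The summed level was 700 to 1127 CPM in f/f and 920 to 950 CPM in ECKO. Most of it came from Zbtb46, Sirpa, Bst2 and Fscn1, so the sum does not show the low markers. The median of the 7 tested genes was -0.06. In a fit without the filter on low counts, 10 of the 14 lay below 0 and the median was -0.74, with 0 called lower and 1 higher. Xcr1 was at 0 in 5 of 6 libraries and Flt3 in 2, both ECKO, while Itgax, the CD11c gene, held 0.585, 2.31 and 0.870 CPM in f/f and 0.333, 0.0581 and 0.344 CPM in ECKO (adjusted p = 0.120). Of 12 Kupffer cell markers 11 were tested and none passed in edgeR or limma-voom. DESeq2 called 1 of them higher, beside 470 of all 13692 tested genes. At an unadjusted p under 0.05 in edgeR 1 was lower and 1 higher, beside 13.1% and 10.4% of all tested genes. The sum of the Kupffer cell markers was 240 to 359 CPM in f/f and 267 to 353 CPM in ECKO. Most of it came from Slc40a1, with 185, 249 and 205 CPM in f/f and 262, 198 and 255 CPM in ECKO, so the sum shows little of the other markers. Clec4f, the most specific of them, held 3.64 to 6.09 CPM in f/f and 7.09 to 14.6 CPM in ECKO, no defining marker was at 0, and the list's median was 0.08, or -0.18 under total count scaling.

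Of 12 monocyte and macrophage markers 9 were tested. None passed in edgeR or limma-voom, and the median was -1.61. At an unadjusted p under 0.05 in edgeR 5 were lower, and DESeq2 called 5 lower, beside 13.1% and 7.58% of all tested genes. Trem2, a receptor of lipid-laden macrophages, held 0.669, 2.75 and 1.86 CPM in f/f and 0.266, 0 and 0.0573 CPM in ECKO (-4.02, SE 0.90, edgeR adjusted p = 0.0529). Ly6c2 and Gpnmb stood at -2.28 and -2.82 (0.0648 and 0.0794). Their sum was 403 to 925 CPM in f/f and 404 to 571 CPM in ECKO. Most of it came from Spp1 and Cd9, and Cd9 stood at 0.49 in the other direction. Without these 2 genes the sum was 55.2 to 150.3 CPM in f/f and 44.9 to 57.3 CPM in ECKO, and none of Ly6c2, Ccr2 and Cx3cr1 was at 0. Of 12 T and NK cell markers 3 were tested and none passed, in any of the 3 tools or at an unadjusted p under 0.05. Their sum was 10.7 to 12.6 CPM in f/f and 8.95 to 14 CPM in ECKO, most of it from Lck at 5.28 to 10.4 CPM. Cd3e and Cd4 stayed at or below 0.538 CPM, and Cd3d was at 0 in 1 library. Ptprc, the CD45 gene carried by leukocytes in general, held 3.85, 6.88 and 7.08 CPM in f/f and 3.40, 2.21 and 2.29 CPM in ECKO (-1.18, SE 0.31, edgeR adjusted p = 0.0795). Of 8 leukocyte genes none passed in edgeR or limma-voom. At an unadjusted p under 0.05 in edgeR 3 were lower, and DESeq2 called 2 lower (beside 13.1% and 7.58% of all tested genes). Their sum was 132 to 163 CPM in f/f and 144 to 156 CPM in ECKO, most of it from Arhgdib, which stood at 0.22. Without Arhgdib it was 19.3, 43.1 and 32.1 CPM in f/f and 22.9, 16.2 and 18.9 CPM in ECKO. The part of these cells in the class II result was not tested.

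The f/f libraries differed among themselves in the order of the pathway genes. f/f replicate 1 was the highest f/f library for 5 of the 10 genes (H2-Aa, H2-Ab1, Ciita, H2-DMa and H2-DMb1) and the lowest for 4 (Cd74, H2-DMb2, H2-Oa and H2-Ob). The same library was the lowest of the f/f group for 13 of 13 tested B and plasma cell markers, with a summed level of 33.2 CPM against 72.2 and 71.7 CPM. It was also the lowest for 10 of 11 Kupffer cell, 8 of 9 monocyte and macrophage and 7 of 8 leukocyte genes. It was the highest for 8 of 10 genes of interferon-gamma signalling and its brakes, for 11 of 13 class I genes, and for 12 of 14 LSEC markers. Its class II sum was 114 CPM, against 146 and 113 CPM. In ECKO, replicate 1 was the highest library in both sums, at 48.7 CPM for class II and 22.8 CPM for the B and plasma cell list. The mitochondrial share of f/f replicate 1 was 23.5%, against 14.2% and 11.5%.

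**Figure D3:**
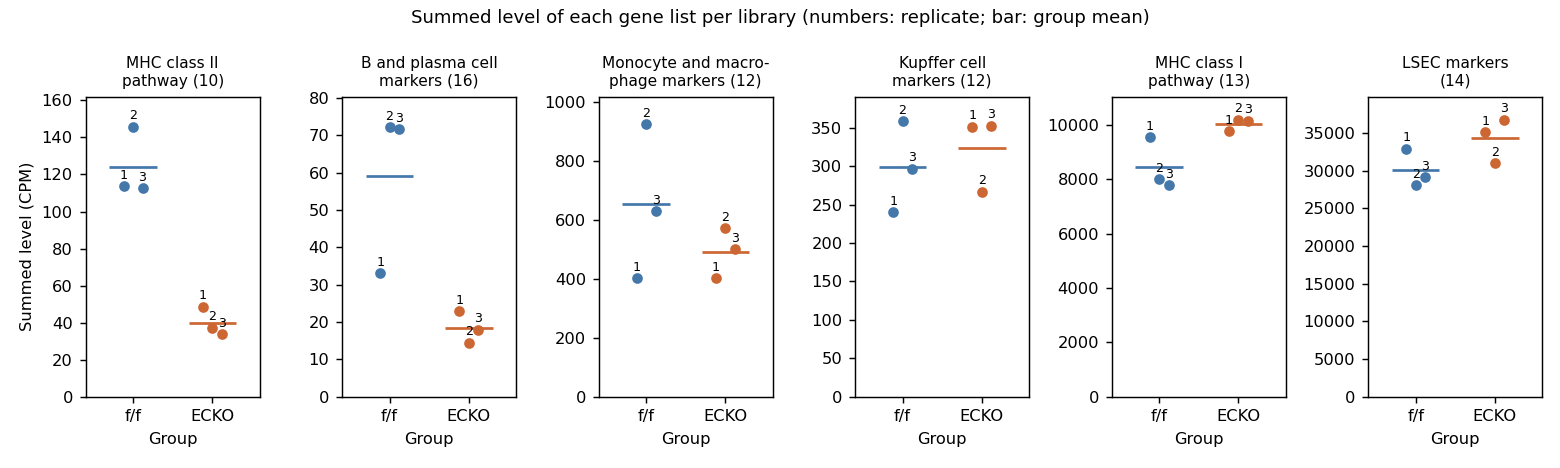
Summed level in CPM of 6 gene lists in each library, for f/f (blue) and ECKO (orange), with the replicate number above each point, a bar at the group mean and axes that start at 0. The class II sums of the groups are far apart (113 to 146 CPM against 33.7 to 48.7 CPM), and f/f replicate 1 stands at 33.2 CPM in the B and plasma cell panel, nearer the ECKO libraries than the other f/f libraries. Most of the Kupffer cell sum is Slc40a1, and most of the monocyte and macrophage sum is Spp1 and Cd9.

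The genes most like the classical chains and Cd74 in pattern were Cdk6, a cell cycle kinase, Tcf7, a transcription factor of T cells and Wnt signalling, Slc7a6, an amino acid transporter, Sdk2, an adhesion molecule of synapses, and Kcp, a BMP-binding protein. Their Pearson correlations with the mean standardised profile of H2-Aa, H2-Ab1, H2-Eb1 and Cd74 were 0.997, 0.996, 0.993, 0.992 and 0.989 across the 6 libraries, over genes of at least 1 CPM. The 6 points share the difference between the groups, so these values are a description. Cdk6 held 16.8, 18.7 and 14.3 CPM in f/f and 6.86, 4.88 and 4.24 CPM in ECKO. Among the members, the profile's correlation was 0.958 with Ciita, 0.921 with H2-DMa and 0.688 with H2-Ob.

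**Figure D4:**
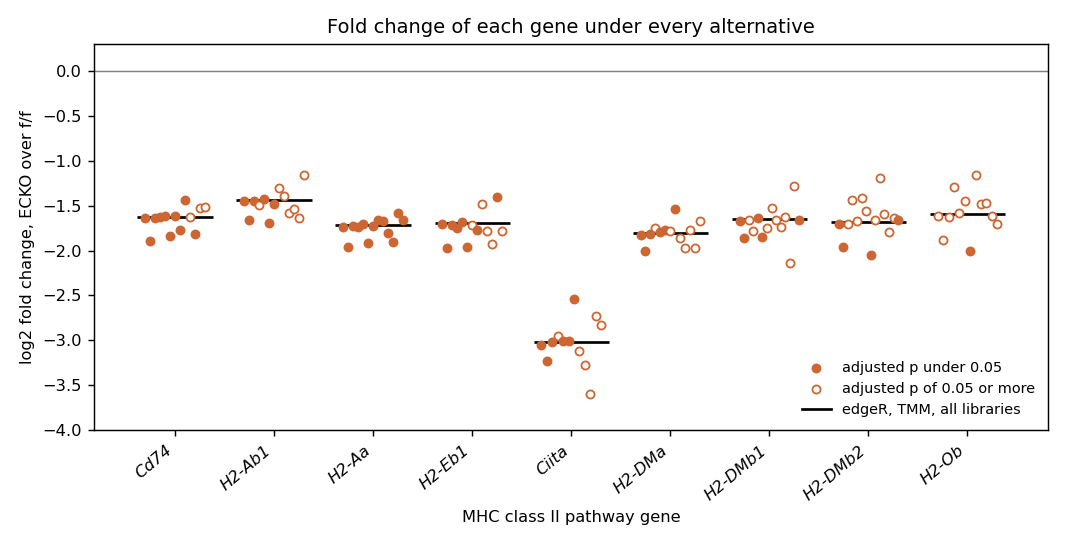
log2 fold change (ECKO over f/f) of the 9 tested MHC class II pathway genes under each alternative scaling, tool, filter or left-out library (points, filled where the adjusted p was under 0.05), with a black bar for edgeR on all libraries. All points lie at or below -1.16, and the points of H2-Aa are the only ones all filled.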

How the data were processed

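RNA-seq libraries of LSECs, 3 labelled f/f and 3 labelled ECKO, were compared. The deposited table gives raw counts per gene and FPKM values made by the authors, 1 column each per library, per the file headers. The submitters' processing notes name HISAT2 2.0.4 and StringTie 1.3.0, with builds mm10 and GRCm38.p4. No source used here names the counting tool, its annotation or its strand mode. Columns left out numbered 0.

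Genes were filtered with filterByExpr (minimum count 10, minimum total 15) and scaled by TMM. They were tested with edgeR 4.0.16 in R 4.3.3 (robust quasi-likelihood, genotype as the only term, two-sided, Benjamini-Hochberg). SE is the absolute log2 fold change over the square root of F. A count of 0 allows up to 3 counts, or 0.124 to 0.200 CPM. The procedure was tested on simulated data. DESeq2 1.42.0 and limma 3.58.1 served as alternatives, with log2(FPKM + 0.1) for genes averaging at least 0.5 FPKM.

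The members and lists were chosen with earlier results of these data known. Named were all members, region neighbours, defining markers, and in each list the called genes or the 3 of smallest p. Rfx5, Nlrc5, Irf1, Socs1, Socs3, Cd274, Mif, Ddt, Ctsb, Ctsd, Ctsf, Cd80, Cd86, Pecam1, Ighm, Jchain, Zbtb46, Sirpa, Bst2, Fscn1, Ccr7, Slc40a1, Lck, Trem2, Gpnmb, Spp1, Cd9, Arhgdib and Cxcr4, outside this rule, were chosen after their values were seen. Date-like symbols (March1, March8) were restored through gene identifiers.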

Additional observations from a re-analysis of the deposited data

How the results depend on the processing

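Each of the 9 members tested in edgeR on all libraries had a negative log2 fold change under every alternative that tested it. The values lay between -3.59 and -1.16, but the calls depended on single libraries and on the tool. That range leaves out H2-Oa, which passed the filter in some of the fits with a library left out. The count of members that fell was 6, and 3 in limma-voom, while leaving out 1 library gave 1 to 7. Over all genes, 382 fell and 170 rose. DESeq2 gave 1038 and 470, total count scaling 1209 and 63 (95% of calls lower, against 69.2%), and limma-voom 200 lower. The FPKM test gave 40 higher (92.4% of calls lower). Leaving out 1 library gave 21 to 766 lower and 14 to 246 higher. The cause was not tested. Left-out libraries moved the group difference in the ratio of Cd74 to chains between -0.12 and 0.06, and in the H2-Eb1 share between -8.34 and 4.40 percentage points.

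Replicate numbers gave no clear pairing of the samples: deviations of same-numbered libraries correlated at 0.09, 0.15 and -0.05. The best match among the ECKO libraries had the same number for f/f replicates 1 and 2 but not for 3. With 3 libraries a side this check cannot decide whether the samples were paired. With a replicate block 4 members fell, H2-Eb1 (adjusted p = 0.0757) and H2-DMa (0.0539) missing the threshold, and 285 genes fell and 131 rose. Precision is limited by counts in Ciita and H2-Oa, with 1 to 8 counts in each ECKO library.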
